A study of Caenorhabditis elegans with 2 samples.

Results

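The genes described here encode ubiquitin and close relatives of it, the enzymes that attach these proteins to others, and enzymes that take ubiquitin off again. They are the 65 protein-coding genes, of 19973 on the 6 nuclear chromosomes, whose symbol starts with ubq-, ubl-, uba-, ubc-, cul-, rbx-, skr- or usp- in the Ensembl annotation of WBcel235. Genes of the same pathway with other names fall outside this rule and are counted separately further on. The data are lists of peaks from chromatin immunoprecipitation and sequencing of an eGFP fusion of C16A3.4, a zinc finger protein, in whole L1 larvae of Caenorhabditis elegans of both sexes, and the labels name C16A3.4 as the antibody's target. Strain OP345 carries the unc-119(ed3) mutation and the integrated transgene wgIs345, which adds the tagged copy. The only group holds 2 samples, biological replicates 1 and 2, so conditions cannot be compared. Whole animals were used, so the cell types behind a peak cannot be told apart. The lists give no read counts, and the depth behind each peak is unknown.

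Ubiquitin is a small protein that cells join to other proteins as a tag, most often to send them to the proteasome. An activating enzyme (E1, the uba- genes) charges ubiquitin, a conjugating enzyme (E2, most ubc- genes) carries it, and a ligase (E3) chooses the target. In cullin-RING ligases a cullin (cul-) is the scaffold, a RING protein (rbx-) binds the E2, and adaptors such as the Skp1-related proteins (skr-) hold the substrate receptor, while ubiquitin-specific proteases (usp-) reverse the tag. SUMO and NEDD8, relatives of ubiquitin, are attached through parallel sets of enzymes.

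A gene was counted when the summit of a peak lay in its promoter window, from 1000 bp upstream to 200 bp downstream of its annotated 5′ end. The authors' thresholded list holds 3220 peaks, which are the 3220 strongest of 21096 peaks called on both replicates pooled. Of the 65 genes, 22 (33.8%) had a thresholded summit in the window, where 13.7% of all protein-coding genes had one. Any pooled summit, strong or weak, lay in the windows of 42 of the 65 (64.6%), against 36.5% of all protein-coding genes. The genes differed by family. Of 20 skr genes none had a thresholded summit. The other 45 genes held all 22 (48.9%), a share that leaves out the family with none. Several skr genes lie side by side, such as skr-8, skr-9, skr-12 and skr-13 on chromosome IV. The 20 are thus not 20 separate places in the genome. Many worm transcripts receive their first bases by trans-splicing, so an annotated 5′ end need not be the start of transcription.

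**Figure D1:**
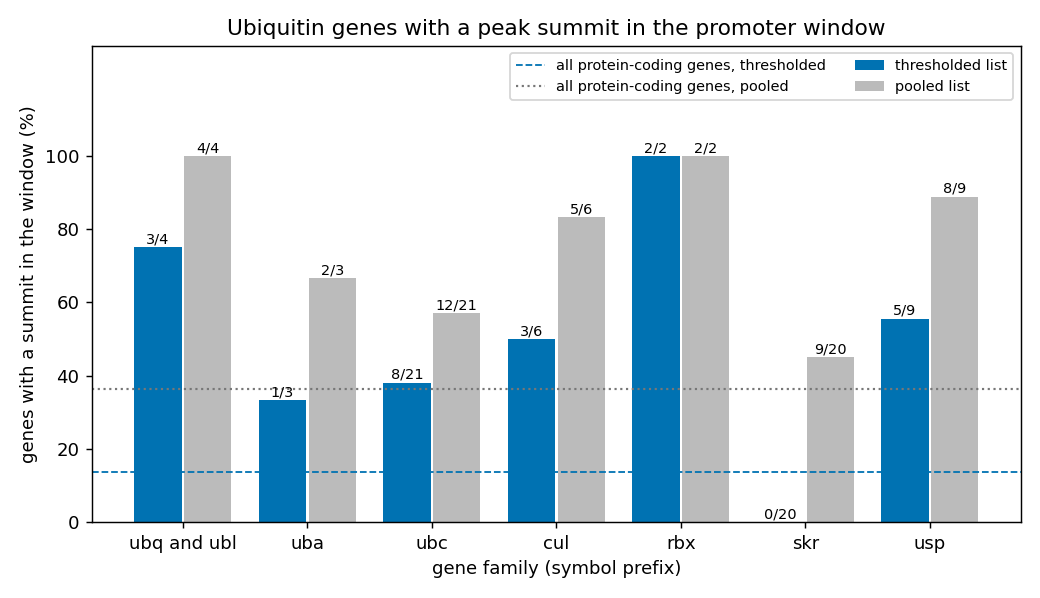
Percent of genes in each family (symbol prefix, horizontal axis) with a peak summit in the promoter window, for the thresholded list (blue bars) and the pooled list (grey bars), with counts above the bars. The dashed and dotted lines mark all protein-coding genes, at 13.7% and 36.5%, and the skr family has no blue bar.

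The sequences under the strongest peaks outside the 250 bases next to the 5′ end are shown first, as 101 bases centred on the summit (base 51) and written on the strand of the gene, from the RefSeq copy of WBcel235. Capitals mark the word CCGCCC on either strand, one of 6 words searched. The stretch of usp-4 is chrIV:6756575-6756675, plus strand. Those of ubq-2, chrIII:12978940-12979040, and of ubc-7, chrIII:9631436-9631536, are on the minus strand.
usp-4: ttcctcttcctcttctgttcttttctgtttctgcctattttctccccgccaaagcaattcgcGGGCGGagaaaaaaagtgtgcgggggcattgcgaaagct
ubq-2: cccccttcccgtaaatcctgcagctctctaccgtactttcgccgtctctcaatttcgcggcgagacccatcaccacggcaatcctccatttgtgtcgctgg
ubc-7: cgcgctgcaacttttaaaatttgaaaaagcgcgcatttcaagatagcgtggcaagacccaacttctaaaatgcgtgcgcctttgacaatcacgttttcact

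Next come the 250 bases just upstream of the 5′ end for 3 genes with strong summits inside that stretch, and for skr-4, which had no summit in its window in any of the 4 lists used. All lie on the plus strand: ubl-1 at chrIII:3068060-3068309 with its summit at base 46, ubc-6 at chrII:7478937-7479186 with a summit at base 144, usp-39 at chrII:2565025-2565274 with its summit at base 91, and skr-4 at chrV:19923974-19924223. In ubc-6 the capitals mark the 62-base arms of an inverted repeat, each of which holds CCGCCC at its outer end. In skr-4 they mark TGATAA, read on the other strand. From 250 bases upstream to 50 downstream of the 5′ end, 6 of the 20 skr genes and 30.2% of all protein-coding genes held this word. None of the printed stretches overlaps an annotated exon except that of skr-4, which overlaps the pseudogene WBGene00014934. The stretches of usp-39 and skr-4 end in cag, the bases of a splice acceptor, directly before the annotated 5′ end.
ubl-1: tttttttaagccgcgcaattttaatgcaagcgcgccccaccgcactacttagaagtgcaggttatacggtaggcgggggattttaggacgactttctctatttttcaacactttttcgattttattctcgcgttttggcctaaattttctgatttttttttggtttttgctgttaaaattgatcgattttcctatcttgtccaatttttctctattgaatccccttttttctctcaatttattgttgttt
ubc-6: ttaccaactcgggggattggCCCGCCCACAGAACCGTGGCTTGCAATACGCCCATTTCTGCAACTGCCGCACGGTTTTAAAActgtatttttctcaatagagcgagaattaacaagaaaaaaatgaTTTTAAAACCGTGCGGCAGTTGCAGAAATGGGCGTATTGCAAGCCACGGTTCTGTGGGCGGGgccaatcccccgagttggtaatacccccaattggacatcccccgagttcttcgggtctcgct
usp-39: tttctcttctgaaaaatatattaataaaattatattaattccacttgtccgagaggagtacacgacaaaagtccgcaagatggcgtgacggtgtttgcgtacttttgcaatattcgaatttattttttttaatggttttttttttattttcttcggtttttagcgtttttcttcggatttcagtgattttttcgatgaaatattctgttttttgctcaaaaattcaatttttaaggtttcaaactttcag
skr-4: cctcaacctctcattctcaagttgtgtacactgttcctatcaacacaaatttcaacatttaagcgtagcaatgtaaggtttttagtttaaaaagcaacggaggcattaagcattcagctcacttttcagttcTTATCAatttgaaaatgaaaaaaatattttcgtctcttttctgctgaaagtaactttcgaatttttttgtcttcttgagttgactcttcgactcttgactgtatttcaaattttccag

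Genes of ubiquitin and its relatives carried the strongest member peak and, after usp-4, the next strongest. The peak of ubl-1 (WBGene00006725), which encodes a ubiquitin-like protein fused to the ribosomal protein S27a, had the highest signal of all members. Its thresholded signal was 228, replicate 1 gave 103 and replicate 2 gave 116, and it ranked 204 of 3220. The signal is the authors' own value per peak, its scale is not stated, and each list was called separately. The summit lay 205 bp upstream of the 5′ end, in no other gene's window, and the summit in replicate 2 was at the same base. The peak of ubq-2 (WBGene00006728), which encodes ubiquitin fused to the ribosomal protein L40, had a thresholded signal of 176, with 55.6 in replicate 1 and 117 in replicate 2. Its summit lay 467 bp upstream of ubq-2 but 172 bp upstream of the neighbour frg-1, so the peak cannot be given to 1 of the genes. The peak of ubl-5, which in the worm takes part in the mitochondrial unfolded protein response, was weaker, with a thresholded signal of 99.3, and 48.7 and 55.5 in replicates 1 and 2.

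The polyubiquitin gene ubq-1 had only a weak pooled peak in its window, with a pooled signal of 23.6. A thresholded peak with a signal of 91.7 (30.7 in replicate 1 and 55.8 in replicate 2) had its summit inside the gene, 384 bp downstream of the outermost 5′ end and in no exon of the gene. A second annotated transcript of ubq-1 starts further in, and the summit lay 348 bp upstream of that start. Counted from all annotated transcript starts, all 4 genes of this family had a thresholded peak, where 14.5% of all protein-coding genes had one. Under the rule that the gene's own 5′ end is nearest to the summit, 2 of the 4 had one.

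Of the 3 E1 genes, the one for ubiquitin itself had no thresholded peak. The gene uba-1, which encodes the E1 of ubiquitin, had only a pooled peak, with a pooled signal of 40.8, replicate signals of 23.1 and 20.2, and a summit 293 bp upstream. That value lies below 48.4, the lowest signal in the thresholded list. The gene uba-2, for a subunit of the E1 of SUMO, had a thresholded peak with 83.7, and 57.8 and 32.7 in replicates 1 and 2. Its summit lay 323 bp upstream of uba-2 and 10 bp inside the first exon of vps-25, so here too the neighbour was nearer. The gene uba-5, for the E1 of the ubiquitin-like protein UFM1, had no pooled summit in its window, but a thresholded peak with a signal of 139 lay inside the gene, 522 bp downstream of the outermost 5′ end and 399 bp upstream of an inner transcript start.

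The genes with the ubc- prefix are all called E2 genes below, by their symbol alone. Of these 21 genes, 8 (38.1%) had a thresholded summit, and their signals had a median of 125 (59.7 to 162). The strongest was ubc-7 (WBGene00006704), with a thresholded signal of 162, replicate signals of 54.3 and 110.4, and a summit 319 bp upstream. The gene ubc-6 (WBGene00006703), related to the yeast E2 that sits in the membrane of the endoplasmic reticulum, was the only member with a pair of thresholded summits in its window. The outer one, 309 bp upstream, had a signal of 137 and 54.2 in replicate 1, and no summit of replicate 2 lay within 100 bp of it. The inner one, 107 bp upstream and inside the second arm of the inverted repeat printed above, had 98.2, with 24.5 in replicate 1 and 77.5 in replicate 2. The regions of these peaks overlap, and replicate 2 had only 1 summit in the window, 148 bp upstream. Both thresholded summits also fell in the window of aka-1.

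The gene ubc-3, for a Cdc34-type E2 that works with cullin ligases, had a signal of 132 in the thresholded list. Replicate 1 gave 27.8 (rank 2239 of 30000) and replicate 2 gave 102 (rank 453), so its strength differed between the replicates more than that of any other matched member peak. The E2 genes of the related tags lay in the middle of the family. The gene ubc-12, for the E2 of NEDD8, had 125, with 54.1 and 69.2 in replicates 1 and 2. Its summit lay 288 bp upstream of ubc-12 and 11 bp upstream of rbm-3.2. The gene ubc-9, for the E2 of SUMO, had 124 with 60.8 and 63.7, and its summit, 255 bp upstream, lay in no other window.

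The remaining E2 genes with a thresholded peak were weaker. The gene ubc-25 had a thresholded signal of 86.9 and 70.0 in replicate 2, and the nearest summit of replicate 1 in its window, with 21.9, lay more than 100 bp away. The gene ubc-18, whose product works with RING-between-RING ligases, had 79.8, with 22.8 in replicate 1 and 52.6 in replicate 2, and shared the summit with R01H2.8, whose 5′ end was nearer. The gene ubc-20 had 59.7, with 27.5 and 28.3, and shared it with mxl-2. Of the 13 E2 genes without a thresholded summit, 4 had a weaker pooled one, led by ubc-19 (38.6), and 9 had none. Among those 9 were ubc-13, whose product builds lysine-63 chains, and ubc-1, the relative of yeast RAD6.

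The cullin and RING genes had peaks below the member median of 92.9, and both RING genes and 3 of the 6 cullins carried one. The gene rbx-1 had a thresholded signal of 87.7 and replicate signals of 34.7 and 47.3, with its summit 391 bp upstream and in no other window. The gene rbx-2 had 67.8, with 31.4 and 33.5, and shared its summit, 62 bp upstream, with ncbp-1. Neither is among the 322 strongest peaks of the list.

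Of the 6 cullins, cul-2, cul-3 and cul-4 had a thresholded summit. The gene cul-4, the scaffold that works with DDB1, had 75.4, with 36.9 in replicate 1 and 39.6 in replicate 2. The gene cul-3, which uses BTB proteins as adaptors, had 67.4, with 29.9 and 37.9. The gene cul-2, which works with the elongins, had the weakest peak of all members, at 54.0, and replicate 2 gave 32.7 while replicate 1 had no summit in the window, only one within 200 bp of the thresholded summit. Its summit lay 144 bp downstream of the 5′ end in an exon of cul-2, the only one of the 22 not upstream. The same summit also fell in the window of dyf-2, 968 bp upstream of that gene. The gene cul-1, scaffold of the SCF ligases that use Skp1-type adaptors, had a pooled peak of 26.3 that did not reach the thresholded list, and cul-6 had one of 18.7. For cul-5 no summit lay in the window, although a thresholded peak with 78.2 lay 1160 bp upstream.

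The skr genes, for Skp1-related adaptors, had pooled summits but no thresholded one. A pooled summit lay in the windows of 9 of the 20 (45%), against 36.5% of all protein-coding genes, from 8 separate peaks, since skr-9 and skr-13 share 1. These pooled signals ran from 15.6 to 37.5, with the highest at skr-3 (37.5) and skr-19 (37.2), and their ranks ran from 4286 to 16902 of 21096. The gene skr-1, a Skp1-type adaptor of the SCF ligases, had a pooled signal of 26.7, and its strongest replicate summits, at different places in the window, had 13.1 and 26.3. Of these 20 genes, skr-16 alone reached the 3220 strongest peaks of a replicate, with 31.1 at rank 3112 in replicate 2, and replicate 1 had no summit in its window. The other 11 had no pooled summit.

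Position and repeated sequence were measured beside this count, and their part in it was not tested. Of the 20 skr genes, 15 had no other protein-coding 5′ end within 1000 bp, and among the 45 other members 28 were placed like this. Of those 28, 12 had a thresholded summit, and of the 15 skr genes none, where 8.15% of all protein-coding genes placed like this had one. Together 12 of 43 such members (27.9%) had a thresholded summit, against 8.15% of all protein-coding genes placed like this. In the median skr window 0.640% of the 31-base words recurred elsewhere in the genome, with 36.0% at skr-8 and skr-9 and 33.3% at skr-13. In 9 of the 20 windows no word recurred. The median over all protein-coding genes was 0%. The length of the reads is not given in the sources used here.

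**Figure D2:**
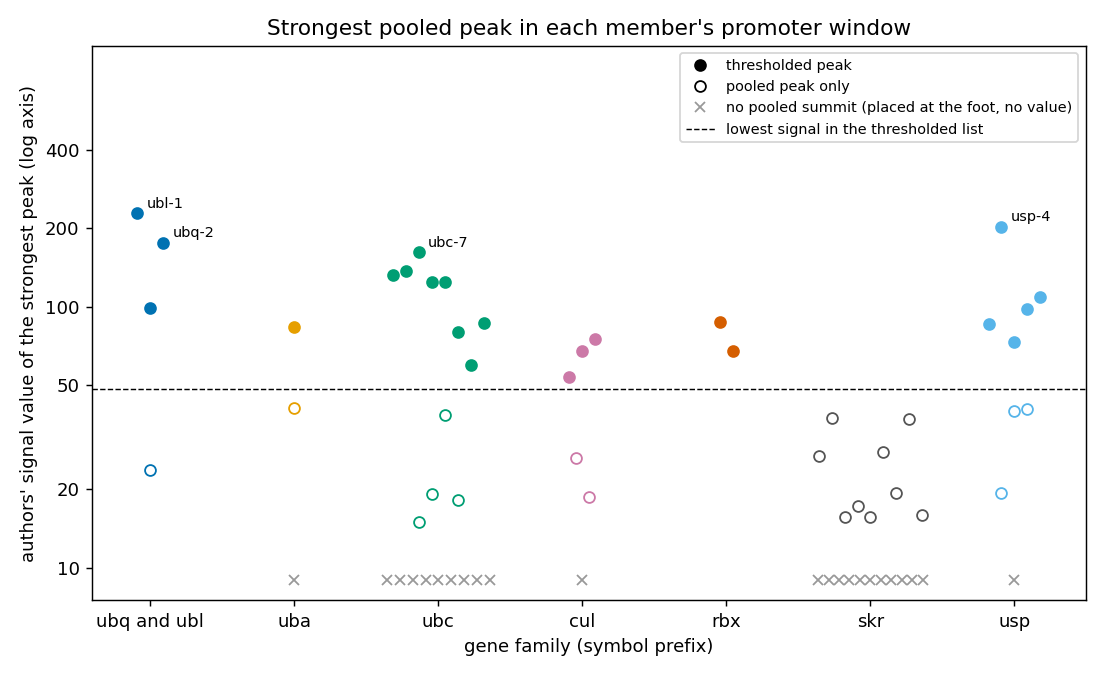
Signal of the strongest pooled peak in each gene's window (vertical log axis, the authors' value) by family. Filled points are peaks of the thresholded list, open points are pooled peaks only, crosses at the foot are genes with no pooled summit, and the dashed line is 48.4, the lowest thresholded signal. All skr points are open or crosses.

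Of 9 ubiquitin-specific protease genes, 5 (55.6%) had a thresholded summit. The strongest was usp-4 (WBGene00019259), the second strongest of all members, with a thresholded signal of 203 and replicate signals of 69.8 and 126. Its summit lay 686 bp upstream, farther from the 5′ end than any other of the 22, with no other window over it. The gene usp-48 had 109, with 51.9 and 51.2, and shared its summit with F30A10.9. The gene usp-39, whose human relative acts in splicing, had 98.1, with 51.7 in replicate 1 and 35.6 in replicate 2, and thus was higher in replicate 1.

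The peak of usp-3 had 85.7, with 31.4 and 55 in replicates 1 and 2. Its summit lay 248 bp upstream of usp-3, 283 bp upstream of the ribosomal protein gene rps-6 and inside an exon of the non-coding gene Y71A12B.31. The gene usp-14, for the protease that works at the proteasome, had 73.0, with 32.3 and 42.2, and its summit 113 bp upstream lay in no other window. Of the other 4 genes, usp-46, which in the worm acts on glutamate receptors, had a pooled peak of 40.7, usp-33 had 40.0, usp-5 had 19.4 and usp-50 had none.

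The pooled list shows how close the remaining genes came. Of the 43 members without a thresholded summit, 20 had a pooled one, with signals from 14.9 to 40.8 and a median of 21.5. The 5 strongest were uba-1 (40.8), usp-46 (40.7), usp-33 (40.0), ubc-19 (38.6) and skr-3 (37.5). The weakest members inside the thresholded list were cul-2 at 54.0 (rank 2840 of 3220) and ubc-20 at 59.7 (rank 2519). The lowest signal in that list was 48.4. The other 23 had no pooled summit.

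Member peaks were of ordinary strength for genes that have one. The median of the strongest peak per gene was 92.9 over the 22 members and 98.0 over all 2728 genes with a thresholded summit, and 11 of the 22 lay above the latter. Their ranks ran from 204 to 2840, and 2 of the 22, ubl-1 and usp-4, were among the 322 strongest peaks.

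The replicates gave much the same members. With each replicate's own 3220 strongest peaks, replicate 1 had a summit in the windows of 23 of the 65 genes, against 13.3% of all protein-coding genes, and replicate 2 in 22, against 13.1%. Both replicates had one in 20 of the 65, against 10.6% of all protein-coding genes, and all 20 are among the 22. The other 2 were ubc-20, ranked 3471 in replicate 2, and cul-2. The 22 genes have 23 thresholded peaks, of which 20 had a summit within 100 bp in both replicate lists, and 93.0% of all thresholded peaks had this.

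At these 20 peaks replicate 2 had the higher value in 17 and replicate 1 in 3 (uba-2, usp-39 and usp-48). Over all matched thresholded peaks replicate 2 was higher at 80.9%. The ratio of replicate 2 to replicate 1 had a median of 1.27 at the member peaks, with a range of 0.566 at uba-2 to 3.68 at ubc-3, and a median of 1.46 over all matched peaks. Every one of the 22 member peaks found in replicate 2 was at the highest −log10 q of that list, 3.87. In replicate 1, 19 of 21 were at its highest, 3.71, and the exceptions were the inner peak of ubc-6 (2.69) and the peak of ubc-18 (2.31). Member peaks were taken from the strongest pooled peaks, and the share of all thresholded peaks at these highest values is not given here. These counts therefore do not set the members apart.

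**Figure D3:**
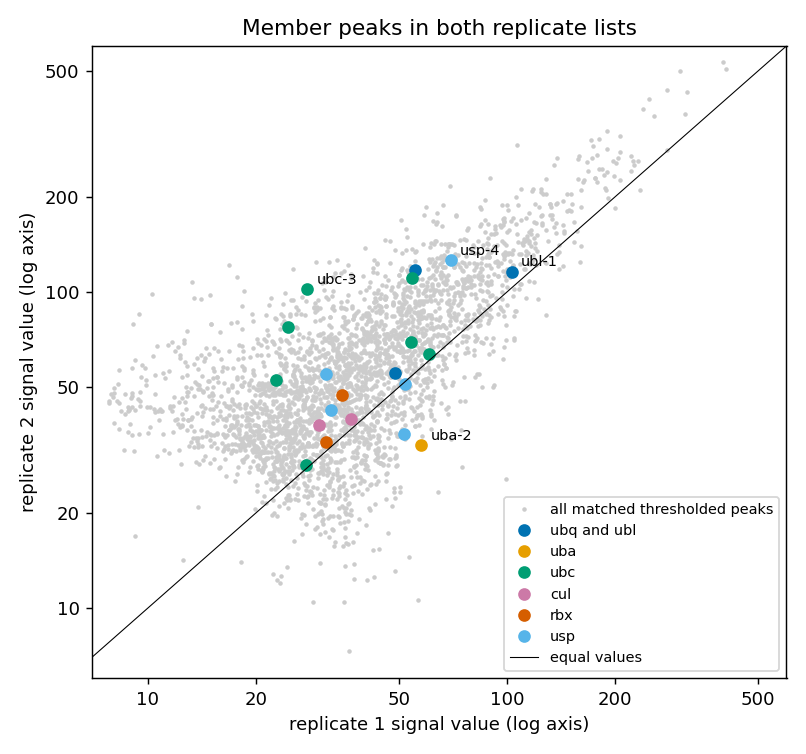
Signal in replicate 1 (horizontal log axis) and replicate 2 (vertical log axis) at the 20 member peaks matched in both replicate lists, coloured by family, over all matched thresholded peaks in grey. The line marks equal values, and 17 of the 20 member peaks lie above it, with ubc-3 farthest from it.

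Nearly all member summits lay upstream of the 5′ end. Over the strongest peak of each of the 22 genes summits had a median position of −272 bp (quartiles −322 and −211 bp, range −686 to 144 bp). Over all 2728 genes with a thresholded summit the median was −227 bp (quartiles −396 and −129 bp). Of the 22, 15 (68.2%) lay between 200 and 400 bp upstream, where 30.1% of all genes with a thresholded summit had theirs. This band was not planned and encloses both member quartiles, so these shares only describe the 22 and do not set the members apart. The 8 E2 genes lay between 319 and 192 bp upstream. Among the 22 genes, 14 had an annotated 5′ end directly after the letters CAG (63.6%), as did 40.8% of all genes with a thresholded summit and 22.1% of all protein-coding genes. Of all 65 members 29 had this (44.6%), and of the 20 skr genes 2.

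**Figure D4:**
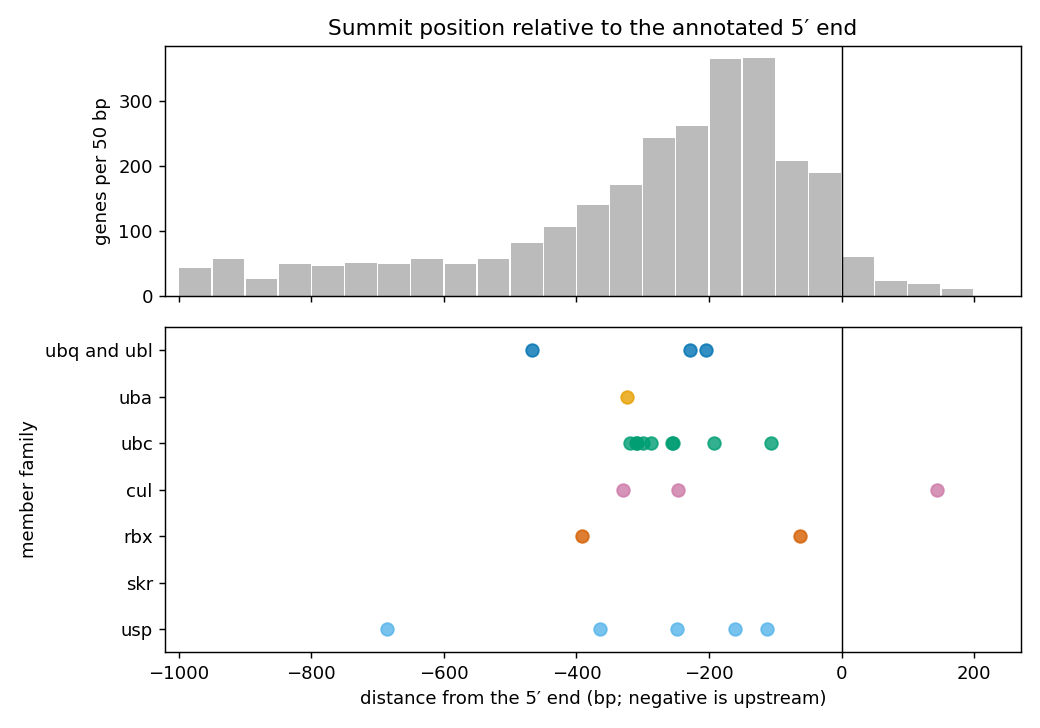
Position of thresholded summits relative to the annotated 5′ end (horizontal axis in bp, negative upstream). The upper panel counts all protein-coding genes with a thresholded summit per 50 bp by their strongest peak, and the lower panel shows each of the member summits by family. All E2 summits but the inner one of ubc-6 lie between 319 and 192 bp upstream, and cul-2 alone lies downstream, at 144 bp.

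Windows of other genes held the same summit in many cases, so these peaks cannot be assigned to 1 gene. For 12 of the 22 members (54.5%) the summits lay in no other protein-coding window, and over all genes with a thresholded summit this share was 44.2%. The nearest 5′ end was the member's own for 18 of the 22 (27.7% of all 65), where 9.68% of all protein-coding genes met this stricter rule. The 4 that lost their peak under it were ubq-2, uba-2, ubc-12 and ubc-18. By chromosome, a thresholded summit was found for 8 of 14 members on I, where 19.6% of all protein-coding genes had one, for 4 of 9 on II (13.6% of all) and for 6 of 9 on III (21.1%). On IV it was 2 of 14 members, 7 of them skr genes, against 12.1% of all, and on V 2 of 11, 6 of them skr genes, against 9.09%. On X it was 0 of 8, 3 of them skr genes, against 10.7%.

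Of 6 words searched on both strands within 50 bp of a summit, CCGCCC was found at 5 of the 23 member peaks (ubc-6, ubc-9, ubc-12, usp-4 and usp-14) and at 5.75% of all thresholded peaks. CTGCGTC was found at 3 (ubc-3, cul-3 and cul-4) and at 10.2% of all. The other 4 words were at none of the 23. Of all thresholded peaks, 5.37% held CACGTG, 3.88% held TATAAA, 5.34% held TGATAA and 2.92% held GTAAACA. The promoter stretch of 300 bases ran from 250 upstream to 50 downstream. In it CCGCCC was found in 8 of the 65 members, 2 of the 20 skr genes and 7.83% of all protein-coding promoters. Among the 22 members with a thresholded summit 5 held it, against 8.69% of all genes with such a summit. By the same comparison TATAAA was in 7 against 33.8%, TGATAA in 2 against 23.7% and CTGCGTC in 1 against 8.1%. GTAAACA was in 1 against 5.72%, and CACGTG was in none against 5.54%. No word is contained in another, CACGTG reads alike on both strands, and a match describes letters only. The 101 bases around the summits had a median of 49.5% G and C at member peaks and 46.5% at all thresholded peaks.

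Genes of the same pathway with other names were counted in 9 further lists, set beside the same 13.7%. Substrate adaptors and receptors of cullin ligases had a thresholded summit in 9 of 18 cases, led by wdr-23 (152), lin-23 (146, with its summit at −965 bp, near the edge of the window) and sel-10 (139). HECT ligases had one in 3 of 6, with wwp-1 at 369, above every member of the named families, eel-1 at 130.2 and hecd-1 at 50.4. RING, RBR and U-box ligases had one in 5 of 16, led by brc-1 (163), the relative of human BRCA1, ufd-2 (162), which lengthens ubiquitin chains, and pdr-1 (127, in the window of cyk-4 as well), the relative of parkin.

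The regulators of cullins, the COP9 signalosome and the NEDD8 pathway, had a thresholded summit in 4 of 12 cases, led by dcn-1 (159), csn-1 (62.3) and ned-8 (57.9). These 3 summits also lay in the windows of evl-14, phf-14 and hpo-35 in turn. Other deubiquitinases had one in 4 of 13, led by ubh-4 (154), math-33 (110.1) and otub-2 (71.5). The summits of ubh-4 and math-33 were shared with algn-6 and erfa-3, and that of otub-2 lay at −940 bp. Of 3 E2 variants uev-1 had one (94.7, shared with hinf-1 and F39B2.3), and of 7 SUMO genes smo-1, which encodes SUMO, had one (52.8).

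The large families of substrate receptors had few. Of 322 F-box genes (fbxa-, fbxb- and fbxc-), whose products bind Skp1-type adaptors, 15 (4.66%) had a thresholded summit, led by fbxb-58 (324), fbxb-85 (226) and fbxb-72 (206). The summit of fbxb-58 lay 1000 bp upstream, at the edge of its window, and that of fbxb-85 lay in the window of hex-3 as well. Of 36 genes of the MATH and BTB family (bath-), 3 (8.33%) had one. They were bath-42 (263), bath-38 (97.5) and bath-36 (71.3), and each summit lay in another gene's window as well, for bath-42 that of the splicing factor gene prp-8.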

How the data were processed

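Peak lists of 2 replicates of 1 group were used on the ce11 build, which has the same sequence names and lengths as WBcel235. Per the file headers and accompanying notes, the authors made 1 list for each replicate and 1 for the replicates pooled, all against a control, and from these a list thresholded by irreproducible discovery rate. The sources used here do not name the caller or aligner. The authors' signal value per peak (scale not stated) and the deposited −log10 q were taken as they stand, and no test was run. Summits (start plus offset) were placed with Ensembl release 115 (46890 genes) in Python 3.11.15, and the placing was tested on simulated data. Members and lists were chosen with earlier results of these data known. All members with a thresholded summit are named, then the 5 strongest pooled ones and up to 3 genes per further list, and a few other members were named for their role after their values were seen. The inverted repeats, recurring words and sequences around far summits were chosen after seeing the data. The band from 200 to 400 bp upstream was not planned either. Promoter sequences were read from the genome. One symbol of the further lists, in the deubiquitinases, had no match. Depth per sample is unknown. Replicates are called biological in the labels. Lists on ce10 were not used here.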

Additional observations from a re-analysis of the deposited data

How the results depend on the processing

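Most counts moved by less than 1.5 times. With the strongest 1610 thresholded peaks the members with a summit fell from 22 to 14 and all protein-coding genes from 2728 to 1628 (8.15%), with 0 for cul, 1 for rbx and 0 for uba. With members restricted to those with no other protein-coding 5′ end within 1000 bp the count was 12 of 43 (27.9%). Of all protein-coding genes placed like this 8.15% had a summit. In the uba family, where 1 was counted, all transcript starts gave 2, the rule of the nearest 5′ end gave 0, the 6440 strongest pooled peaks gave 2, and leaving out a replicate gave 1 to 2, with uba-1 gained without replicate 2. For skr, 2000 bp upstream gave 1 (skr-18, whose summit lay 144 bp upstream of ech-5), the 6440 strongest pooled peaks gave 4 and leaving out a replicate gave 0 to 1, with skr-16 gained without replicate 1. These pooled peaks put 30 of the 65 members (46.2%) and 20.2% of all protein-coding genes past the rule. Of the 22 members, 11 had a summit under all 9 alternatives other than that restriction: ubl-1, ubl-5, ubc-3, ubc-6, ubc-7, ubc-9, ubc-25, rbx-1, usp-3, usp-39 and usp-48. The restriction leaves out ubc-6, usp-3 and usp-48 of these. Counts of pooled summits ran from 34 to 46, and matched member peaks from 18 at 50 bp to 23 at 200 bp. Unknown depth limits what the absence of a peak can show. No paired analysis was possible because the series holds 1 group.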

Other observations

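Inverted repeats lay in the windows of 4 of the 65 members (6.15%). They were 3 of the 22 members with a thresholded summit (ubc-3, ubc-6 and usp-48) and 1 other member, skr-12. An inverted repeat is a stretch followed by its own reverse complement, counted here when both arms match over at least 20 bases. Of all protein-coding windows 5.53% held one, near the share of the 65 members, and of those with a thresholded summit 3.23% did. The arms were 99 bases long at usp-48, 65 at ubc-3, 62 at ubc-6 and 35 at skr-12. At ubc-6 they ran from −230 to −169 and from −124 to −63 bp, and the summits lay at −309 and −107 bp. At usp-48 they ran from −659 to −561 and from −506 to −408 bp, with the summit at −364 bp. At ubc-3 they ran from −1000 to −936 and from −805 to −741 bp, with the summit at −310 bp. Of the 31-base words in these windows 24.1% recurred in the genome at ubc-3, 20.7% at usp-48 and 16.6% at ubc-6, while 16 of the 22 windows held no recurring word.

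Members that lacked a summit in the window had a thresholded peak close by in 5 cases. Beside the inner peaks of ubq-1 and uba-5 and the peak upstream of cul-5, a peak with a signal of 94.2 lay 1535 bp upstream of ubc-8. One with 135 lay 1446 bp upstream of skr-18, but 144 bp upstream of ech-5. Wider rules added genes in general. With 2000 bp upstream, members rose from 22 to 25 (38.5%) and all protein-coding genes from 13.7% to 17.4%. With all transcript starts the members came to 24 (36.9%) and all protein-coding genes to 14.5%.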
